A study of Mus musculus with 6 samples.

Results

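The 10 genes described here encode receptors by which macrophages take up modified lipoproteins, debris and dying cells, and the soluble proteins that link dying cells to those receptors. They were chosen by symbol, as a fixed list, from the 22063 genes of a single deposited table, and each symbol matched 1 row. By role they are the scavenger receptors Lrp1, Msr1, Stab1 and Marco, the receptor tyrosine kinases Axl and Mertk, the phosphatidylserine receptor Timd4, and the secreted bridging molecules Mfge8, Pros1 and Gas6, so that 3 of the 10 are ligands and not receptors. RNA sequencing covered 3 samples of CAR-Trem2-Ms and 3 of CAR-Ms, mouse macrophages that had been infected with a lentivirus so as to carry a chimeric antigen receptor, a designed receptor that turns a cell towards a chosen target. All were grown for 7 days with M-CSF, the macrophage growth factor, at 20 ng/mL in DMEM, and the tissue field of every sample reads skin. CAR-Trem2-Ms have the genotype entry TERM2+, and their own treatment entry adds VD3 at 1 µM for 24 h and sorting by flow cytometry. CAR-Ms have the genotype entry WT, and their own treatment entry names the lentivirus alone. A protocol text attached to all 6 samples also mentions VD3, so the labels do not settle whether CAR-Ms received it. Trem2 status, sorting and possibly VD3 changed together and cannot be told apart. Strain, age, the promoter of the transgene and the number of animals or cultures are not given in the labels, so the p-values below reflect sample-to-sample spread that may be technical.

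Scavenger receptors bind a wide range of polyanionic or modified ligands, above all oxidised and acetylated lipoproteins, and bring them into the cell for degradation. Clearance of dying cells, called efferocytosis, starts when phosphatidylserine appears on the outer face of the dying cell. Macrophages read this lipid either directly, as TIM-4 does, or through bridging proteins: Gas6 and protein S link it to the TAM kinases (Tyro3, Axl and Mertk), and Mfge8 links it to integrins. In mouse macrophages Mertk is known as the TAM receptor of resting cells and Axl as one that inflammatory stimuli and interferon induce.

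The total count per sample was between 9804959 and 12558021 in CAR-Trem2-Ms and between 14204468 and 15913100 in CAR-Ms. Trem2 itself read 191.2 ± 7.56 CPM (counts scaled to library size, with TMM factors) in CAR-Trem2-Ms and 76.6 ± 2.32 in CAR-Ms (SD, n = 3 each), a check of the label and no result here. TMM factors assume that most genes do not differ, and each fold change divides CAR-Trem2-Ms by CAR-Ms. The test was edgeR's quasi-likelihood test with Benjamini-Hochberg adjustment over all 11402 genes with enough reads, called at an adjusted p under 0.05. It called 81.1% of tested genes changed, 40.9% higher and 40.1% lower in CAR-Trem2-Ms, and the groups did not overlap in 81.8% of them. Of the 10 genes, 6 passed the filter on low counts, and all 6 were called, 4 higher and 2 lower, with no overlap between the groups in any of the 6, beside a background where most genes did the same. Axl passed the filter through CAR-Trem2-Ms, where it is high, so its place in that count supports nothing. The other 4 had at most 12 reads in any sample. The median log2 fold change of all tested genes was 0.03 with TMM factors and -0.63 on log2(TPM + 1), where TPM are the deposited values per gene length. On that scale limma called 81.6% of 10824 genes, 17.5% higher and 64.2% lower, and of the 5 genes described here with enough signal 1 was higher (Stab1) and 4 were lower. Directions below are those of the TMM scale unless another is named.

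**Figure D1:**
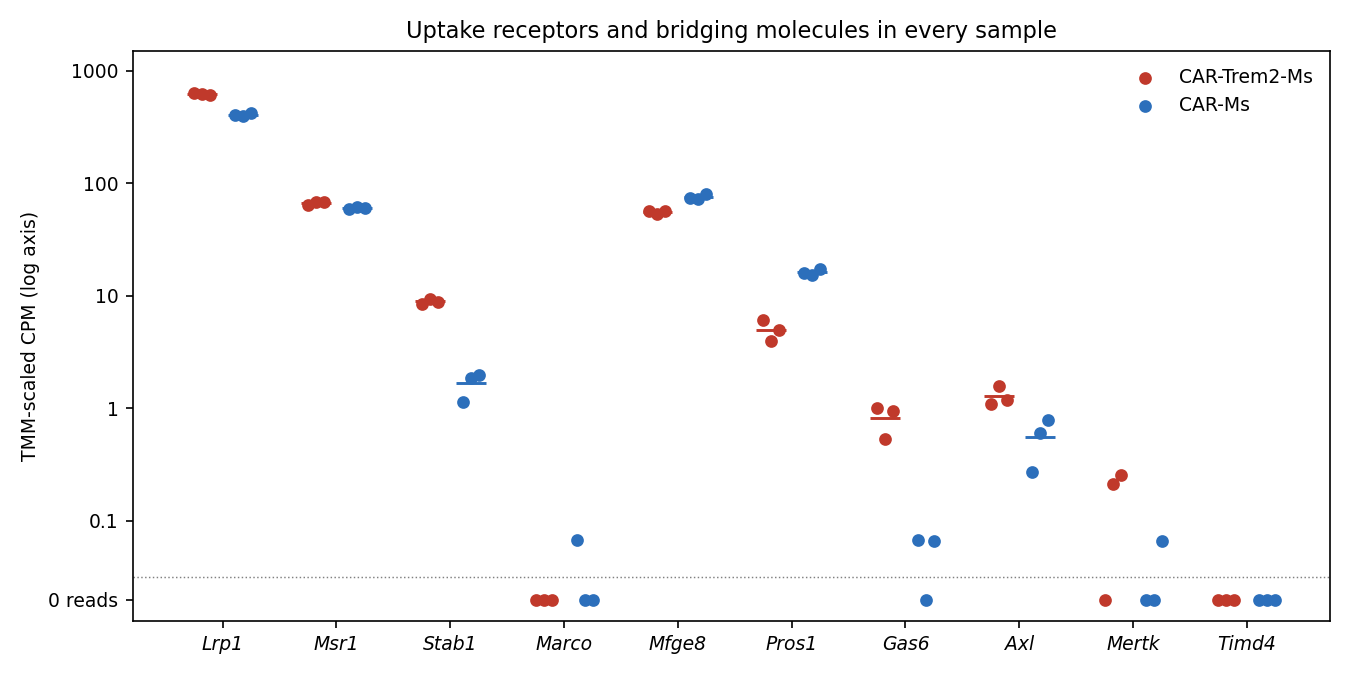
TMM-scaled CPM of the 10 genes in every sample on a log axis, with points for samples, lines for group means where every sample had a read, and points below the dotted line for samples with 0 reads. Stab1 is higher in CAR-Trem2-Ms, Lrp1 is higher on this scale though lower on deposited TPM, and Pros1 and Mfge8 are lower. Gas6 has more reads in CAR-Trem2-Ms but no call, and Marco, Mertk and Timd4 lie at or near 0 reads.

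Among the scavenger receptors, the clearest change was in Stab1, which was 5.31-fold higher in CAR-Trem2-Ms, and Lrp1 was 1.53-fold higher with TMM factors although it fell slightly on the TPM scale. Msr1 differed little, and Marco was all but absent from both groups. Lrp1 is a giant endocytic receptor of the LDL receptor family that takes up lipoproteins, protease-inhibitor complexes and, with calreticulin as a partner, dying cells. Its gene (ENSMUSG00000040249) lies on the minus strand of GRCm38 chromosome 10, from 127538161 to 127621148. Lrp1 had 7511, 5846 and 7159 reads in CAR-Trem2-Ms replicates 1, 2 and 3, which is 627.9, 621.2 and 611.1 CPM. The CAR-Ms replicates had 5954, 6577 and 6356 reads, or 401.5, 396.6 and 418.7 CPM. All 3 CAR-Trem2-Ms samples stood above all 3 CAR-Ms samples on the CPM scale, and the groups did not overlap. The log2 fold change was 0.61 ± 0.03 (SE; edgeR, Benjamini-Hochberg adjusted p = 2.37e-18). On deposited TPM the order was the reverse, with 40.1, 40.1 and 39.4 TPM in CAR-Trem2-Ms against 47.8, 43.8 and 43.6 TPM in CAR-Ms. In limma on log2(TPM + 1), Lrp1 fell by 0.17 on the log2 scale (adjusted p = 0.0195), on a scale where the median of all genes was -0.63. Set against that median, Lrp1 was 0.58 above it with TMM factors and 0.46 above it on log2(TPM + 1). A correction of the counts for gene length moved its log2 fold change to 1.15 ± 0.03.

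Lrp1 took 81.8 ± 0.48% of all reads of the 10 genes in CAR-Trem2-Ms and 72.5 ± 0.30% in CAR-Ms (SD, n = 3 each). The 10 genes together held 0.0726 ± 0.0004% of counts in CAR-Trem2-Ms and 0.0584 ± 0.0018% in CAR-Ms, shares that are not corrected for length, and Lrp1 has 17717 bases of exons.

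Stab1 encodes stabilin-1, a scavenger and clearance receptor that takes up acetylated lipoproteins and the matrix protein SPARC and can bind phosphatidylserine. It lies on the minus strand of chromosome 14 (ENSMUSG00000042286, 31139013 to 31168641). Stab1 had 102, 88 and 104 reads in CAR-Trem2-Ms, against 17, 31 and 30 in CAR-Ms. The lowest CAR-Trem2-Ms sample thus had more reads than the highest CAR-Ms sample although its library was smaller. In CPM, the means were 8.92 ± 0.41 in CAR-Trem2-Ms and 1.66 ± 0.45 in CAR-Ms (SD, n = 3 each), a log2 fold change of 2.41 ± 0.26 (SE; edgeR adjusted p = 1.73e-09). It was also called higher on log2(TPM + 1), by 0.66 ± 0.15 (limma adjusted p = 0.00483), a scale that understates changes of genes as low as Stab1. Stab1 shares 112 exon bases with Nt5dc2 on the opposite strand, and whether reads were counted by strand is not stated. Nt5dc2 moved the other way, with 16.8 ± 2.91 CPM in CAR-Trem2-Ms and 29.4 ± 1.15 CPM in CAR-Ms.

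Msr1 encodes scavenger receptor A, the receptor for acetylated and oxidised lipoproteins and a common macrophage marker. The gene (ENSMUSG00000025044) is on the minus strand of chromosome 8, from 39581685 to 39642673. Msr1 had 765, 639 and 802 reads in CAR-Trem2-Ms, or 63.9, 67.9 and 68.5 CPM. In CAR-Ms it had 866, 1014 and 914 reads, or 58.4, 61.2 and 60.2 CPM. The groups were separate but close, and the log2 fold change of 0.15 ± 0.06 (SE; edgeR adjusted p = 0.0221) is a difference of 1.11-fold. The call did not hold with total counts as the only scaling (0.03, adjusted p = 0.657), in DESeq2 (0.14, adjusted p = 0.0737) or with no filter on low counts (0.12, adjusted p = 0.124). It was also lost without CAR-Ms replicate 1 (adjusted p = 0.104), without CAR-Ms replicate 3 (0.0626) and without CAR-Trem2-Ms replicate 3 (0.0652). On log2(TPM + 1) the direction turned, to -0.75 (limma adjusted p = 6.13e-06), which is 0.12 below the median of all genes on that scale, against 0.13 above it with TMM factors. Summed over each group and without TMM factors, Msr1 had 63.8 CPM in CAR-Trem2-Ms and 62.6 CPM in CAR-Ms, a ratio of 1.02 with an exact 95% interval for counting error of 0.96 to 1.08.

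Marco, the collagen-like scavenger receptor of marginal zone and alveolar macrophages (ENSMUSG00000026390, chromosome 1, 120474538 to 120505024, minus strand), was without a read in all 3 CAR-Trem2-Ms samples, 0 each. In CAR-Ms, replicate 1 had 1 read and the others 0. A count of 0 over the CAR-Trem2-Ms libraries allows up to 3 reads, or 0.087 CPM without TMM factors, and no fold change is given.

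**Figure D2:**
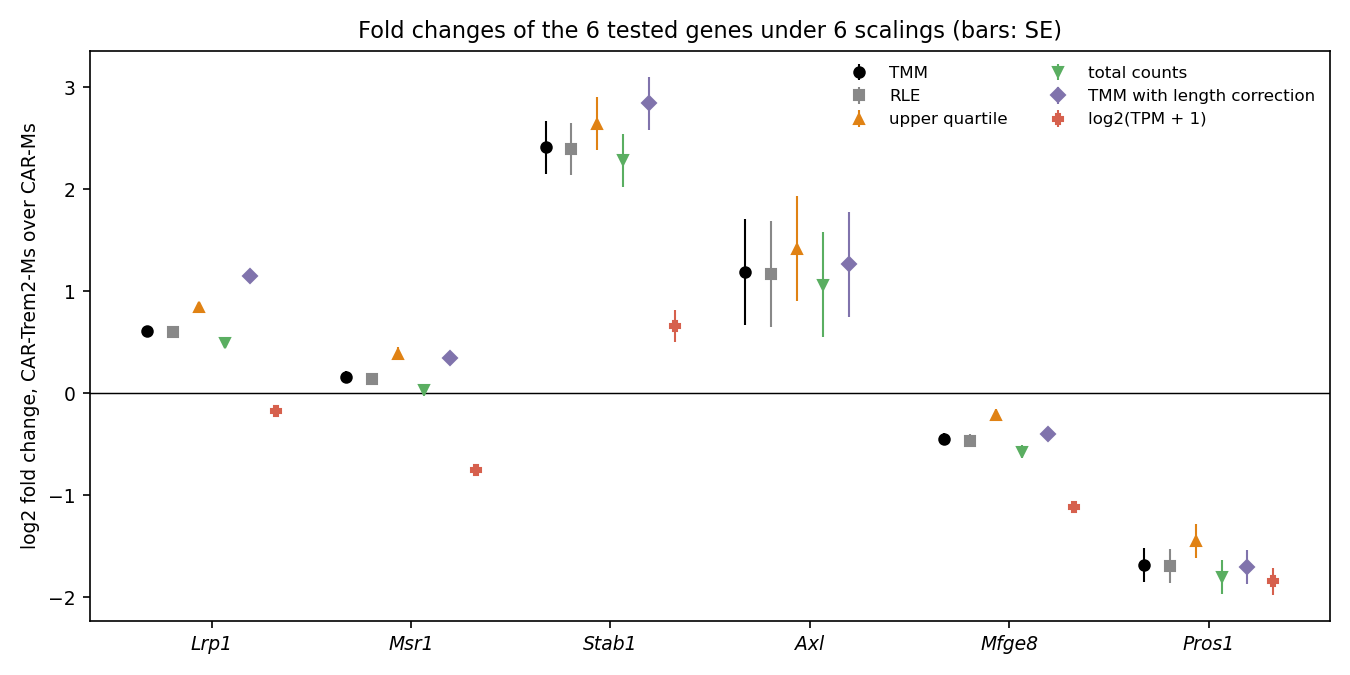
Log2 fold change, CAR-Trem2-Ms over CAR-Ms, of the 6 genes with enough reads under 6 scalings, with bars for the SE. Stab1 lies above 0 and Pros1 and Mfge8 lie below 0 under each scaling shown, whereas Lrp1 and Msr1 lie above 0 on the count scales and below it on log2(TPM + 1); Axl has no value on that scale because its TPM were too low.

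Axl, Mertk and Timd4 were scarce in both groups: Axl gave between 4 and 15 reads per sample, Mertk at most 3 and Timd4 none. Axl, the TAM kinase with the highest affinity for Gas6, lies on the minus strand of chromosome 7 (ENSMUSG00000002602, 25757273 to 25788705). It had 13, 15 and 14 reads in CAR-Trem2-Ms, against 4, 10 and 12 in CAR-Ms. The groups were separate by 1 read, between 13 reads in CAR-Trem2-Ms replicate 1 and 12 in CAR-Ms replicate 3. The means were 1.29 ± 0.27 CPM in CAR-Trem2-Ms and 0.55 ± 0.26 CPM in CAR-Ms (SD, n = 3 each). The log2 fold change was 1.19 ± 0.52 (SE; edgeR adjusted p = 0.0371), or 2.27-fold, for a gene that 2 of the CAR-Ms samples would have left below the filter and that passed it through CAR-Trem2-Ms. That call was lost with total counts only (adjusted p = 0.0609), with no filter (0.114) and in DESeq2 (0.0699). It was also lost without CAR-Ms replicate 1 (log2 fold change 0.86, adjusted p = 0.169), without CAR-Ms replicate 2 (0.0804), without CAR-Trem2-Ms replicate 2 (0.115) and without CAR-Trem2-Ms replicate 3 (0.0588).

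Mertk, the TAM kinase that drives uptake of dying cells in resting macrophages (ENSMUSG00000014361, chromosome 2, 128698956 to 128802894, plus strand), was read 0, 2 and 3 times in CAR-Trem2-Ms and 0, 0 and 1 times in CAR-Ms. The groups overlapped, and the exact permutation test on CPM gave p = 0.4 (2-sided), where 3 samples against 3 cannot go below 0.1. The summed reads, 5 against 1, had a ratio of 6.46 after division by library size, with an exact 95% interval of 0.72 to 305.3, so no difference was detectable at this depth. Timd4, which encodes the phosphatidylserine receptor TIM-4 of long-lived resident macrophages (ENSMUSG00000055546, chromosome 11, 46810800 to 46844332, plus strand), gave no read in any of the 6 samples. That allows up to 3 reads per group, or 0.087 CPM in CAR-Trem2-Ms and 0.067 CPM in CAR-Ms. Such limits and intervals hold counting error alone, because PCR copies are not separate molecules, and in these bulk samples fewer expressing cells and less RNA per cell cannot be told apart.

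Pros1 and Mfge8, the bridging molecules that passed the filter, fell in CAR-Trem2-Ms, to 0.312 and 0.732 of their CAR-Ms levels. Gas6, nearly absent from CAR-Ms, had a few reads in every CAR-Trem2-Ms sample, too few for a call. Pros1 encodes protein S, a vitamin K-dependent plasma protein that serves as an anticoagulant cofactor and as a ligand of Tyro3 and Mertk. It is on the plus strand of chromosome 16 (ENSMUSG00000022912, 62854307 to 62929346). Pros1 had 73, 37 and 58 reads in CAR-Trem2-Ms, against 237, 255 and 263 in CAR-Ms. Every CAR-Trem2-Ms sample stood far below every CAR-Ms sample, and replicate 2 was the lowest. In CPM, the means were 4.99 ± 1.09 in CAR-Trem2-Ms and 16.2 ± 1.00 in CAR-Ms (SD, n = 3 each), a log2 fold change of -1.68 ± 0.17 (SE; edgeR adjusted p = 3.32e-10). On log2(TPM + 1) the change was -1.85 ± 0.13 (limma adjusted p = 4.82e-06), also below the median of all genes on that scale.

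Mfge8, or lactadherin, coats dying cells through its phosphatidylserine-binding domains and is held by αv integrins on the phagocyte. The gene (ENSMUSG00000030605) is on the minus strand of chromosome 7, from 79133768 to 79149060. Mfge8 had 671, 497 and 661 reads in CAR-Trem2-Ms, or 56.1, 52.8 and 56.4 CPM. In CAR-Ms it had 1093, 1211 and 1206 reads, or 73.7, 73.0 and 79.4 CPM. The highest CAR-Trem2-Ms sample was below the lowest CAR-Ms sample. The log2 fold change was -0.45 ± 0.06 (SE; edgeR adjusted p = 1.72e-07), between -0.57 and -0.22 with the other count scalings and -1.12 ± 0.06 on log2(TPM + 1) (limma adjusted p = 7.38e-07). Set against the median of all genes it was 0.48 lower with TMM factors and 0.49 lower on log2(TPM + 1).

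Gas6, the vitamin K-dependent ligand that binds all TAM kinases (ENSMUSG00000031451, chromosome 8, 13465374 to 13494490, minus strand), was read 12, 5 and 11 times in CAR-Trem2-Ms and 1, 0 and 1 times in CAR-Ms. The groups did not overlap, but the gene did not pass the filter and has no edgeR call. The exact permutation test on CPM gave p = 0.1 (2-sided), the smallest that 3 samples against 3 allow. Summed reads of 28 against 2 gave a ratio of 18.1 after division by library size, with an exact 95% interval of 4.56 to 156.6 for counting error. With the filter left out, edgeR gave Gas6 a log2 fold change of 3.96 ± 1.13 (SE; adjusted p = 0.000971). Gas6 shares 34 exon bases with Tmem255b on the opposite strand, which averaged 0 CPM in CAR-Trem2-Ms and 0.02 CPM in CAR-Ms.

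The promoters of the 3 bridging molecules and of Stab1 are printed because Pros1 and Mfge8 fell together while Stab1 rose and Gas6 had more reads in CAR-Trem2-Ms. RefSeq's table for GRCm38.p6 holds such windows, 250 bases before to 50 after the start, for 9 of the 10 genes, all but Msr1. The windows are chr16:62854057-62854356 on the plus strand for Pros1, chr7:79149011-79149310 on the minus strand for Mfge8, chr8:13494486-13494785 on the minus strand for Gas6 and chr14:31168592-31168891 on the minus strand for Stab1. Each is given 5′ to 3′, and capitals mark exact matches, on either strand, to 6 motifs: the GC box GGGCGG, the PU.1 core GAGGAA, the TATA box TATAAA, the AP-1 site TGANTCA, the NF-kB site, searched as GGG and TTCC parted by any 3 bases, and the interferon-response core, searched as GAAA and GAAA parted by any 2 bases.
Pros1: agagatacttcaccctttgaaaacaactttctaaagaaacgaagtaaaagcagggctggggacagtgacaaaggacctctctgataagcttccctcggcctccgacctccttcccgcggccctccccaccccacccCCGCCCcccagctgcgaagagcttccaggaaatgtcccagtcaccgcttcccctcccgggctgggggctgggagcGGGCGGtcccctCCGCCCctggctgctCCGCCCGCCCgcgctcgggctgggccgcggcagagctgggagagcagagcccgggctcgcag
Mfge8: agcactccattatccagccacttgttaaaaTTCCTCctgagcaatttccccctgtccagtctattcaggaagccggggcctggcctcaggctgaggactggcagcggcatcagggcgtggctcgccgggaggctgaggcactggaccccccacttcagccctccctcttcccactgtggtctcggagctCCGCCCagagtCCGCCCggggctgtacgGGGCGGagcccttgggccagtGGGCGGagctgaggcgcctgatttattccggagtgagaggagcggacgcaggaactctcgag
Gas6: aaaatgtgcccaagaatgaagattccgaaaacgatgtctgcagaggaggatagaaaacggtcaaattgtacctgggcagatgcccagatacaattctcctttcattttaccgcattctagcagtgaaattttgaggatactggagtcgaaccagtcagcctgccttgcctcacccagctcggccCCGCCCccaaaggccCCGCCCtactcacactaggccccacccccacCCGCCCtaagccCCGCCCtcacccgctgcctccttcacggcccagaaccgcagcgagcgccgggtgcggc
Stab1: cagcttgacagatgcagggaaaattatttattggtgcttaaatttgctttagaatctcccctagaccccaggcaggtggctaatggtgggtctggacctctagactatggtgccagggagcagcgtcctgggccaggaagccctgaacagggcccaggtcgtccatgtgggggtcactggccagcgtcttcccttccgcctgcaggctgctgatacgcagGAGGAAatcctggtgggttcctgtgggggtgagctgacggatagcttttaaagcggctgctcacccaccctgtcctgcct
The GC box occurred 5 times in the Pros1 window, with 2 of the matches overlapping, 4 times in that of Mfge8, 4 times in that of Gas6 and 0 times in that of Stab1. It is found in 35.66% of all 32851 promoter windows of this length. Stab1 and Mfge8 each held 1 PU.1 core, found in 28.28% of windows. It was in 4 of the 9 windows of the genes described here, those of Marco and Axl included. Across the 9 windows, 0 held the interferon-response core, which 3.44% of all windows hold, and likewise 0 held the AP-1 site (7.81%) or the TATA box (13.62%). The NF-kB site was in 1 of the 9, that of Marco, and in 5.56% of all windows. Pros1 and Mfge8, which fell, and Gas6, which had more reads in CAR-Trem2-Ms, all carry GC boxes. So do Lrp1, Axl and Mertk, which makes 6 of the 9 windows, so GC boxes do not set the bridging molecules apart. A match is a description of these letters, and its absence says nothing about any factor.

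Levels of different genes were compared per gene length, on the deposited TPM. In CAR-Trem2-Ms the order was Lrp1 at 39.8 ± 0.38, Msr1 at 35.2 ± 0.81 and Mfge8 at 29.7 ± 1.12 TPM (SD, n = 3). In CAR-Ms it was Mfge8 at 65.8 ± 3.30, Msr1 at 60.1 ± 3.21 and Lrp1 at 45.1 ± 2.37 TPM. Msr1 and Mfge8 in CAR-Ms differed by less than the sum of their SDs. Far below came Pros1, at 1.56 ± 0.33 TPM in CAR-Trem2-Ms and 8.15 ± 0.53 in CAR-Ms, then Stab1, at 1.08 ± 0.06 in CAR-Trem2-Ms and 0.32 ± 0.09 in CAR-Ms. The other genes averaged under 1 TPM in both groups. The order of the top 3 was another on CPM per kilobase of all annotated exons. There Lrp1 led in both groups, at 35.0 CPM per kilobase in CAR-Trem2-Ms and 22.9 in CAR-Ms. Mfge8 followed at 11.7 and 16.1 in those groups. These 2 scales may differ in more than the length used, and the cause of the difference was not tested.

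**Figure D3:**
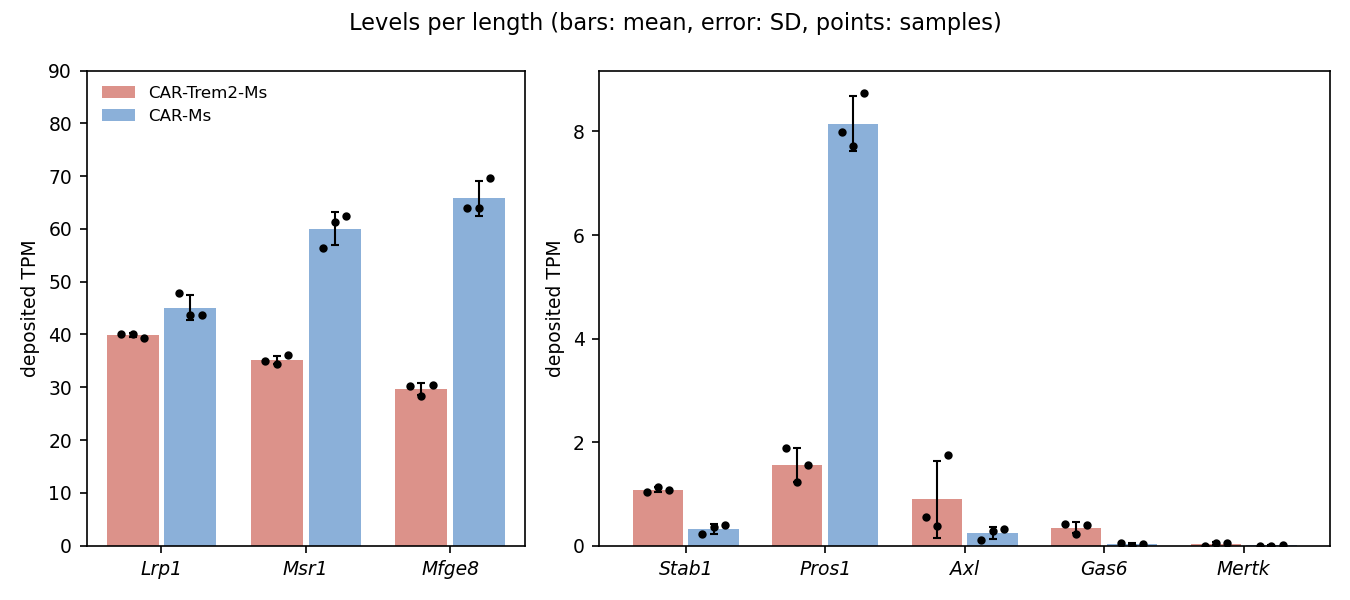
Deposited TPM, a level per gene length, of 8 of the genes, with bars for group means, error bars for the SD and points for samples, on 2 linear axes. Lrp1, Msr1 and Mfge8 lie between 28 and 70 TPM, Pros1 falls to 1.56 TPM in CAR-Trem2-Ms against 8.15 in CAR-Ms, and Marco and Timd4 are left out because they had at most 1 read.

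Ratios of raw reads between the genes within a sample, chosen after seeing the data, do not depend on any scaling factor of the sample. They are not corrected for gene length. That correction moved the log2 fold change of Lrp1 from 0.61 to 1.15 and that of Mfge8 from -0.45 to -0.40. All 10 pairs among Lrp1, Msr1, Stab1, Mfge8 and Pros1 were compared. Their groups were separate in each pair, for genes already known to be separate singly, as were 81.8% of all tested genes, so that count supports nothing about these pairs. Each exact permutation test gave the smallest p possible, 0.1 (2-sided; 0.1 after Benjamini-Hochberg adjustment over the 10 pairs). Lrp1 reads per Mfge8 read were 11.3 ± 0.47 in CAR-Trem2-Ms and 5.38 ± 0.10 in CAR-Ms (SD, n = 3 each). Msr1 reads per Mfge8 read were 1.21 ± 0.07 in CAR-Trem2-Ms and 0.80 ± 0.04 in CAR-Ms, although the direction of Msr1 alone depended on the scaling. Msr1 reads per Lrp1 read were 0.108 ± 0.005 in CAR-Trem2-Ms and 0.148 ± 0.006 in CAR-Ms. Between the bridging molecules, Pros1 reads per Mfge8 read were 0.090 ± 0.017 in CAR-Trem2-Ms and 0.215 ± 0.004 in CAR-Ms. The widest gap was that of Stab1 per Pros1, at 1.86 ± 0.49 in CAR-Trem2-Ms and 0.10 ± 0.03 in CAR-Ms.

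**Figure D4:**
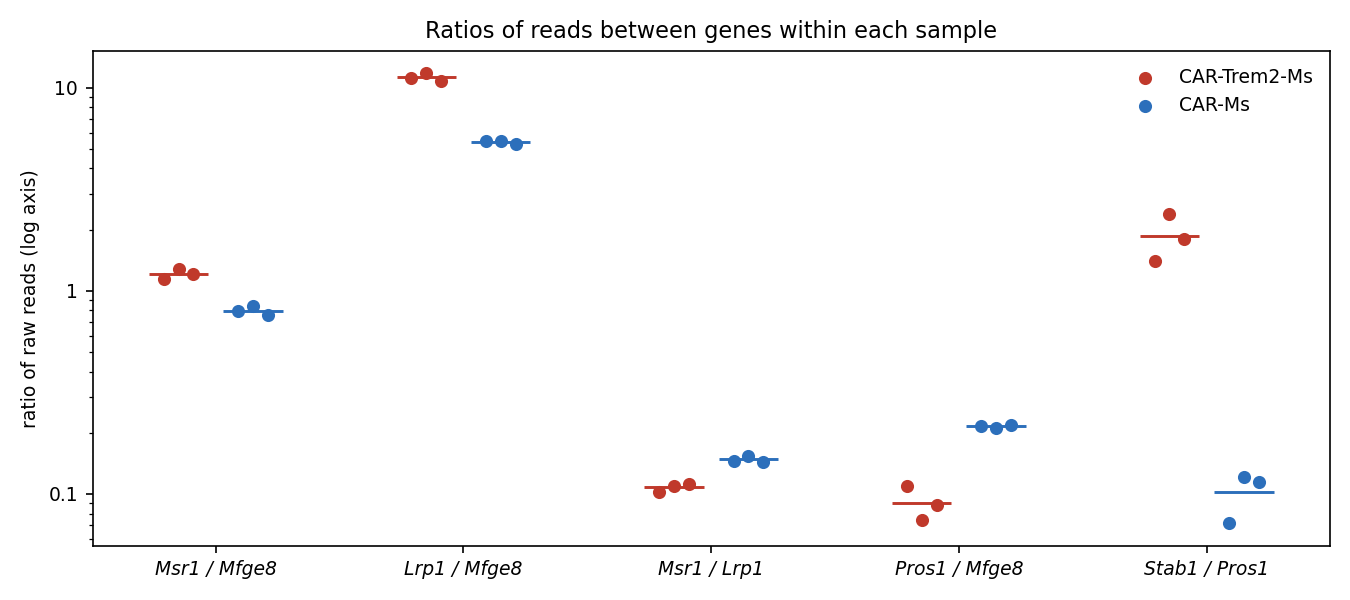
Ratios of raw reads between pairs of the genes within each sample on a log axis, with points for samples and lines for group means. The groups are separate in all 5 pairs shown, and the widest gap is that of Stab1 over Pros1, 1.86 in CAR-Trem2-Ms against 0.10 in CAR-Ms.

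Other genes of uptake were read from the same fit as lists, and their counts are to be set against 40.9% higher and 40.1% lower for all genes. Of 15 other scavenger receptors, 8 had enough reads, 3 rose and 4 fell, with a median log2 fold change of -0.06. Scarf1, a receptor for dying cells that binds complement C1q, rose 5.90-fold to 6.88 ± 1.49 CPM in CAR-Trem2-Ms, against 1.17 ± 0.36 in CAR-Ms (SD, n = 3 each). Colec12, a collectin scavenger receptor, fell by 1.13 on the log2 scale, and Cxcl16, a membrane chemokine that binds oxidised lipoproteins, rose by 0.85 with TMM factors but stood at -0.02 on log2(TPM + 1). On that scale 1 member of this list was higher and 5 lower. Among relatives and partners of Lrp1, 7 of 9 tested fell and 2 rose (median -0.76). Lrp6, a Wnt co-receptor, fell by 1.49 ± 0.05 and Sorl1, a sorting receptor, by 1.36 ± 0.07 (log2, SE). Lrp10, another family member, rose by 1.06 ± 0.06, a call lost on log2(TPM + 1) at 0.15, where 0 genes of this list were higher and 7 lower.

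Among 15 other receptors for dying cells, 10 were tested, 5 rose and 4 fell (median 0.48), and on log2(TPM + 1) the counts were 5 and 4 as well. Cd300a and Cd300lb, which bind phospholipids of dying cells, rose 9.29-fold to 137.4 ± 4.95 CPM and 3.06-fold to 133.4 ± 6.83 CPM in CAR-Trem2-Ms, against 14.8 and 43.7 CPM in CAR-Ms. Tyro3, the third TAM kinase, fell to 1.59 ± 0.50 CPM in CAR-Trem2-Ms, against 4.29 ± 0.43 in CAR-Ms (log2 -1.40 ± 0.31). It was also lower on log2(TPM + 1), at -0.97. The list also holds Trem2, whose rise the label implies. Of 13 other bridging molecules and opsonins, 6 were tested, 4 rose and 2 fell (median 0.75, but 2 higher and 3 lower on log2(TPM + 1)). Lgals3, which encodes galectin-3, rose 3.85-fold to 1040.0 ± 13.5 CPM and Anxa1, a phospholipid-binding annexin, 2.71-fold to 130.5 ± 9.39 CPM. Complement C3 fell by 1.71 ± 0.20 (log2, SE).

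Of 18 tested genes of the engulfment machinery, which rearranges actin around the prey, 11 fell and 6 rose (median -0.31), and on log2(TPM + 1) 15 were lower and 1 higher. Bcar1, a docking protein for Crk, and Vav3, a guanine nucleotide exchange factor, fell by 2.45 ± 0.16 and 1.85 ± 0.09, while Vav1, of the same family, rose by 1.18 ± 0.05 (log2, SE). In the list of find-me and do-not-eat-me signals, 6 of 9 fell and 3 rose (median -0.26), with the same counts on log2(TPM + 1). P2ry2, a receptor for nucleotides that dying cells release, fell by 1.55 ± 0.16 and Panx1, the channel through which they leave, by 1.37 ± 0.10. S1pr1, a receptor for sphingosine 1-phosphate, rose 5.33-fold to 4.96 ± 0.40 CPM. The rises of Sirpa and Cd47, the receptor and ligand of the main do-not-eat-me signal, were named after their values were seen: 0.93 and 0.96 with TMM factors and 0.31 and 0.21 on log2(TPM + 1).

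Digestion and lipid handling after uptake split evenly, with 8 of 19 tested genes higher and 8 lower (median -0.05), but 6 higher and 13 lower on log2(TPM + 1). Abca1 and Abcg1, the transporters that export cholesterol after a meal of dying cells, fell by 3.48 ± 0.27 and 2.77 ± 0.09, and Slc16a1, a lactate transporter, by 1.80 ± 0.03 (log2, SE). Among sheddases and regulators of TAM receptors, 7 of 11 rose and 3 fell (median 0.74), with 4 higher and 5 lower on log2(TPM + 1). Adam10, a protease that cleaves Axl from the cell surface, fell by 1.83 ± 0.04. Klf2, a transcription factor of macrophages, rose by 2.83 ± 0.18. Protein S and Gas6 need vitamin K-dependent carboxylation, and in that pathway 2 of 7 tested genes rose and 4 fell (median -0.32), with 2 higher and 5 lower on log2(TPM + 1). The 2 that rose are Ggcx, the carboxylase, by 0.97 ± 0.15 and Vkorc1, which recycles the vitamin, by 1.13 ± 0.12. Vkorc1l1, a relative of Vkorc1 named after its values were seen, was lower (log2 -0.32 ± 0.10, SE). It had 35.0 CPM in CAR-Trem2-Ms and 43.4 in CAR-Ms, and Vkorc1 had 25.7 and 11.8 CPM in those groups. These values are not corrected for gene length, so the levels of the 2 genes are not compared. Calu, an inhibitor of the carboxylase, fell by 1.13 ± 0.04. A list of 12 interferon-induced genes was taken up because Axl is known to respond to interferon. It was drawn up with their rise in these samples known, so its counts support nothing. In it 12 rose and 0 fell, and 9 of 10 were higher on log2(TPM + 1). The largest rises were those of Oasl2, Rtp4 and Usp18, at 6.86, 6.03 and 5.19 (log2).

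**Figure D5:**
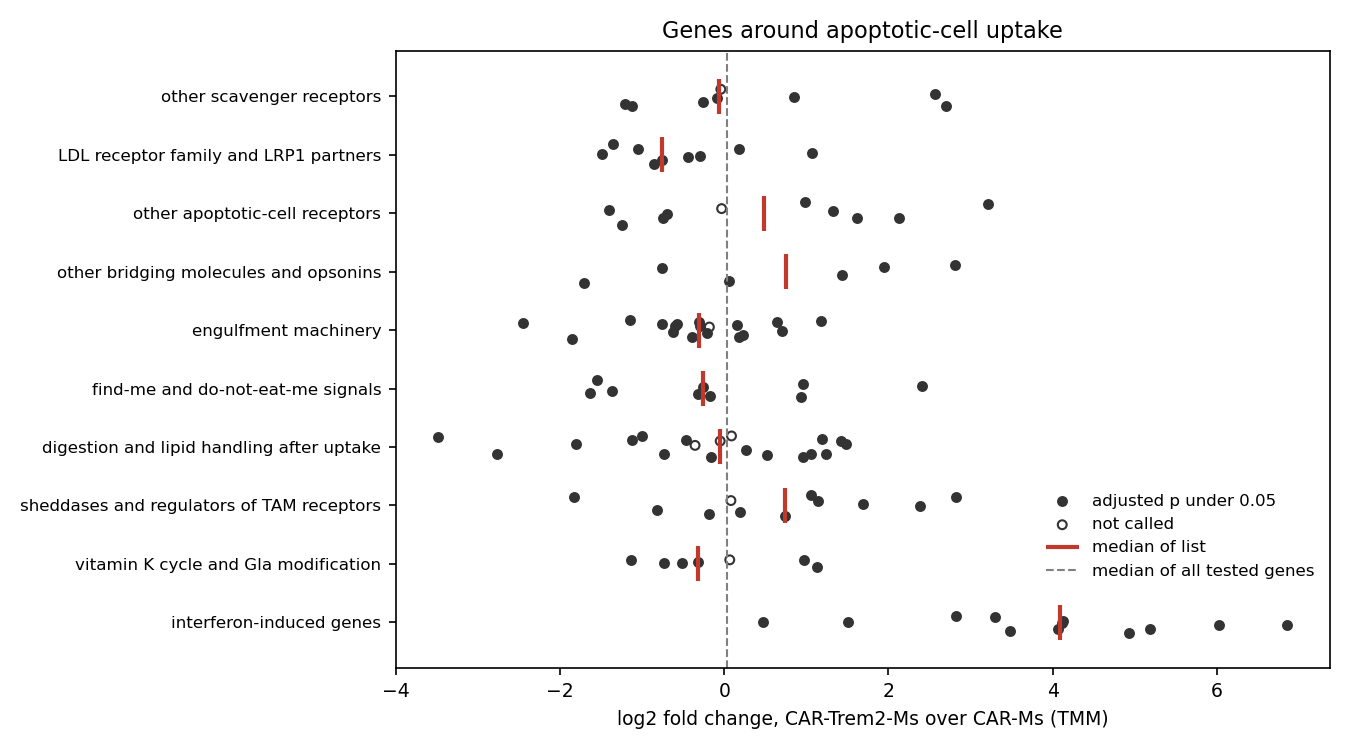
Log2 fold change, CAR-Trem2-Ms over CAR-Ms, of the tested genes in 10 lists around the uptake of dying cells, with filled points for called genes, open points for genes not called, red bars for list medians and a dashed line for the median of all tested genes. On this TMM scale 9 of the lists hold both rises and falls, and relatives of Lrp1 lie mainly below 0. Interferon-induced genes, listed with their rise already known, lie above 0. On log2(TPM + 1) most lists shift down with the median of all genes.

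Defining macrophage markers were high in both groups: the 9 genes summed to between 3934 and 3956 CPM in CAR-Trem2-Ms and between 3455 and 3478 CPM in CAR-Ms, with 6 of 8 tested higher and 2 lower (3 and 4 on log2(TPM + 1)) and Mrc1 too low to be tested. Markers of other cells were low but moved with the groups. The 8 neutrophil markers summed to between 2.65 and 6.48 CPM in CAR-Trem2-Ms and between 18.8 and 35.3 in CAR-Ms, with CAR-Ms replicate 1 highest, and 5 of 5 tested fell. The 5 B cell markers summed to between 3.43 and 4.46 CPM in CAR-Trem2-Ms and between 10.9 and 16.9 in CAR-Ms, and 5 of 5 fell. The 6 T cell markers summed to between 4.35 and 9.46 CPM in CAR-Trem2-Ms and between 1.25 and 1.57 in CAR-Ms, with 2 of 3 tested higher. Those of endothelial cells summed to between 0.92 and 2.23 CPM in CAR-Trem2-Ms and between 3.38 and 4.92 in CAR-Ms, with 2 of 2 tested lower and Emcn at 0. Fibroblast markers summed to at most 4.44 and 2.83 CPM in CAR-Trem2-Ms and CAR-Ms, dendritic cell markers to at most 4.93 and 2.83, keratinocyte markers, with Krt5, Krt1, Krt10 and Trp63 at 0, to at most 0.51 and 1.15, and mast cell markers to at most 0.33 and 0.13. Transcripts of the mitochondrial genome took between 13.4 and 13.8% of counts in CAR-Trem2-Ms and between 4.60 and 4.70% in CAR-Ms. The part of these markers in the changes of Stab1, Pros1, Gas6, Axl and Mfge8 was not tested.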

How the data were processed

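The authors deposited 1 table with raw read counts per gene, TPM per gene and sample, group means of TPM, a log2 fold change and a p-value with its adjusted form, per the file headers. The submitters' processing notes name the build mm10 and the tools StringTie 1.3.1, HISAT2, Bowtie2 2.2.8 and fastp 0.18.0. How reads were counted, whether by strand and on which annotation release, was not given in any source used here. The deposited log2 fold change equalled the log2 ratio of mean TPM, where 0.001 stood in for means of 0.

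The main test on the counts was that of edgeR 4.0.16, run in R 4.3.3 (quasi-likelihood, TMM factors, filterByExpr, 3 samples against 3), after tests on simulated data. Those simulations changed few genes, equally up and down. They cannot show how the test behaves where most genes are called, as here. Alternatives were RLE, upper quartile and total-count scaling, 2 other filters, DESeq2 1.42.0, limma-voom (limma 3.58.1), limma-trend on log2(TPM + 1) with a minimum TPM of 1 in 3 samples, a replicate block, leaving out each sample or the mitochondrial genes, 2 stricter thresholds, and a loess correction for exon length from GENCODE M21 (GRCm38, 99.59% of genes matched by Ensembl ID). Chi-square per degree of freedom between replicates was 2.19 to 3.34, above sampling noise. Each sample counted once in the tests, and these values cannot tell separate cultures from technical copies.

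The members, gene lists and tests were chosen with earlier results of these data known. From each pathway list up to 3 called genes were named, those with the largest change among genes whose groups did not overlap and whose higher group averaged 50 reads or more; others are marked as named after their values were seen, and 1 gene that met the rule is not reported here.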

Additional observations from a re-analysis of the deposited data

How the results depend on the processing

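Stab1, Pros1 and Mfge8 kept their direction and call under all 17 alternatives that gave them a value, with log2 fold changes of 0.66 to 2.84, -1.86 to -1.45 and -1.12 to -0.22. Lrp1 turned to -0.17 on log2(TPM + 1) and kept its call under the other 16, at up to 1.15 with the length correction. Msr1 turned to -0.75 on log2(TPM + 1) and lost its call under 6 of 17, and Axl lost its call under 7 of 16. The count of the 10 genes called higher, 4 with TMM factors, was 2 with total counts only, in DESeq2, at an adjusted p under 0.01 and with a 2-fold minimum, and 1 on log2(TPM + 1); leaving out each sample gave 2 to 4, with 2 without CAR-Trem2-Ms replicate 3 and with Gas6 among those counted in 4 of the 6 fits, where it passed the filter through CAR-Trem2-Ms, the group where it is high. With no filter on low counts, 3 of the 10 were called higher, namely Stab1, Lrp1 and Gas6, while Msr1 and Axl lost their calls. The count called lower, 2, became 4 on log2(TPM + 1) and 1 with a 2-fold minimum, and leaving out each sample gave 2 to 2. Over all genes, 1890 were higher and 6946 lower on log2(TPM + 1), and 2136 and 1629 with a 2-fold minimum, against 4668 and 4577; leaving out each sample gave 4497 to 4662 higher and 4414 to 4575 lower. The cause of these shifts was not tested. Per kilobase of exons in place of TPM, the log2 ratio of Lrp1 to Mfge8 was 1.58 in place of 0.43 in CAR-Trem2-Ms and 0.51 in place of -0.55 in CAR-Ms, and that of Msr1 to Mfge8 was -0.16 in place of 0.25 in CAR-Trem2-Ms and -0.77 in place of -0.13 in CAR-Ms. Of 80 list counts under 4 other scalings, 69 stayed within 1.5 times.

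With the replicate block, 4627 genes were higher and 4561 lower, and 4 and 2 of the 10. Whether same-numbered samples shared a culture or batch is not given in the labels. Their deviations from the group means correlated at 0.01, -0.03 and 0.03, which cannot decide it. Depth limits Axl, Gas6 and Mertk, whose reads per sample stayed at or under 15.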

Other observations

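In the authors' deposited table, Lrp1 has a log2 fold change of -0.18 beside an adjusted p-value of 1.09e-103, and Msr1 one of -0.77 beside an adjusted p-value of 0.0961. Both signs are those of mean TPM, and both are opposite to the signs that the deposited counts gave with TMM factors. For Gas6, which the filter left without a call in edgeR, the authors' deposited table gives a log2 fold change of 3.52 and an adjusted p-value of 0.00202, and for Axl 1.90 and 0.0873.

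For the 5 genes with the most reads, TPM per CPM in CAR-Trem2-Ms over that in CAR-Ms was 0.53 for Msr1, 0.58 for Lrp1, 0.62 for Mfge8, 0.62 for Pros1 and 0.63 for Stab1. Axl differed between replicates of 1 group. In CAR-Trem2-Ms replicates 1, 2 and 3, its 13, 15 and 14 reads were deposited as 0.55, 0.38 and 1.75 TPM, or 0.042, 0.025 and 0.125 TPM per read. In CAR-Ms replicates 1, 2 and 3 each Axl read was worth 0.0275, 0.028 and 0.0275 TPM. The high mean TPM of Axl in CAR-Trem2-Ms therefore rests on replicate 3, although its read count there was no higher than in replicate 2.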
